A study of Zea mays with 12 samples.

Results

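A group of 118 maize genes was lower on average in each of the *tsh1* and *tsh4* single mutants than in B73 and lowest in the double mutant *tsh1 tsh4*. The genes kept 47.9% to 84.9% of their B73 level in *tsh1* and 46.8% to 83.3% in *tsh4*. The group was picked from the measured values among 20168 genes. A gene was taken when its level averaged at least 1 CPM (read count scaled by library size) over the 12 libraries, its mean log2(CPM + 0.1) lay at least 1 below B73 in *tsh1 tsh4*, and the same difference lay above -1 but at or below -0.25 in both single mutants. Every *tsh1 tsh4* library also had to lie below every B73 library. Of 17272 genes at 1 CPM or more, 477 were lower by at least 1 in *tsh1 tsh4*, 135 of these were in range in both single mutants, 12 of those overlapped with B73, and 5 were left out because the study had already drawn them in its own list or because of their identifier. Since all 3 comparisons with B73 chose the genes, and share the same 3 B73 libraries, the values given here are a description and not a test of the pattern.

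The RNA came from ear bract primordia, the suppressed leaf that subtends each spikelet pair, microdissected by laser from the top nodes of the ear, at a stage before a meristem could be seen next to the ridge. The 4 genotypes were B73, *tsh1*, *tsh4* and *tsh1 tsh4*, with 3 biological replicates each. Per the study’s methods the *tsh4-rm* allele came from a transposon-active population and had been crossed back to B73 more than 5 times, and the *tsh1* allele was *tsh1-ref*. The study describes *tsh1-ref* as a transposon insertion with a large deletion. It found no transcripts of 3 genes beside *tsh1* in this allele, so the *tsh1* and *tsh1 tsh4* plants lacked more than *tsh1* itself. Its results state that each allele was introgressed to B73 at least 5 times. The double mutant carried both alleles. The plants were greenhouse grown without treatment, each library represented a small pool of microdissected cells, and the RNA was amplified in vitro before sequencing.

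*tasselsheath1* (*tsh1*) encodes a GATA zinc-finger protein and *tsh4* an SBP-box transcription factor, and both hold back bract growth in the maize inflorescence. The bract is a leaf, so genes of leaf initiation, leaf polarity and hormone response are among those active in its primordium. Where 2 regulators act on a gene through separate routes, their effects are often compared with the sum of the single effects on a log scale, which is the product of the remaining fractions on a linear scale.

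The libraries held 49481413 to 110703826 reads on genes, and replicate 1 was the deepest of each genotype. The mutated genes followed the labels: *tsh1* (GRMZM2G325850) averaged 67.4 CPM in B73 and 0.521 to 0.527 CPM in the genotypes that carry its mutation, and *tsh4* (GRMZM2G307588) averaged 1323 CPM in B73 and 73.7 and 60.1 CPM in *tsh4* and *tsh1 tsh4*. In the *tsh4* mutant *tsh1* itself was lower than in B73, at 22.5 ± 3.42 CPM (SD, n = 3; log2 fold change -1.55, limma adjusted p = 0.0017), so the *tsh4* libraries also had less *tsh1* RNA. The bract marker *zyb15* lay between 1033 and 1804 CPM in all 12 libraries. Of the meristem markers, *kn1* was at 157 to 211 CPM in B73, 101 to 203 CPM for *tsh1*, 78.4 to 133 CPM for *tsh4* and 103 to 234 CPM in the double mutant. The marker *td1* was at 99.4 to 183, 137 to 197, 255 to 310 and 147 to 289 CPM in the same order, and *fea2* at 17.2 to 20.8, 15.7 to 21.1, 11.7 to 18.6 and 15.1 to 20.6 CPM. The summed level of 3 boundary markers (*ba1*, *ra1* and *ra3*) moved with the 118 genes, at 130 to 158 CPM in B73, 101 to 109 CPM for *tsh1*, 70.7 to 135 CPM for *tsh4* and 44.6 to 65.8 CPM in the double mutant. Almost all of that sum was *ba1*, which itself met the limits of the selection. Its changes were -0.52, -0.61 and -1.49 (log2) in *tsh1*, *tsh4* and *tsh1 tsh4*. It was left out of the 118 because the study had drawn it in its own list, so its fall was not a separate observation. The marker *ra1* moved the other way, from 0.150 ± 0.0928 CPM in B73 to 1.95 ± 0.693 CPM in *tsh1 tsh4* (SD, n = 3). The level of *ra3* was 9.62 ± 1.74 CPM in B73, 12.3 ± 0.752 CPM for *tsh1*, 6.60 ± 1.40 CPM for *tsh4* and 4.90 ± 0.781 CPM in the double mutant, so that it did not go down in *tsh1*. The part of these cells in the lower levels was not tested, and in dissected tissue fewer cells of a type and less RNA per cell cannot be told apart.

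A few libraries stood apart for these genes. B73 replicate 1 was the highest of the 12 libraries for 83 of 118 genes and *tsh1 tsh4* replicate 2 was the lowest for 88. Within B73, replicate 1 was the highest library for 72.9% of the 118 genes against 37.0% of all genes at 1 CPM or more. Within *tsh1 tsh4*, replicate 2 was the lowest for 77.1% against 38.8%, and within *tsh1*, replicate 2 was the highest for 72.0% against 37.0%. The median difference of the 118 genes from the B73 mean was 0.25, -0.18 and -0.10 (log2) in the B73 replicates, -0.73, -0.25 and -0.67 for *tsh1*, -0.77, -0.71 and -0.54 for *tsh4*, and -1.01, -1.62 and -1.16 for the double mutant. The *tsh4* libraries were thus the most alike, *tsh1* replicate 2 lay next to the B73 libraries, and no *tsh1 tsh4* library reached any single-mutant library in this median. The median over all genes lay within 0.02 of 0 in every library.

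**Figure D1:**
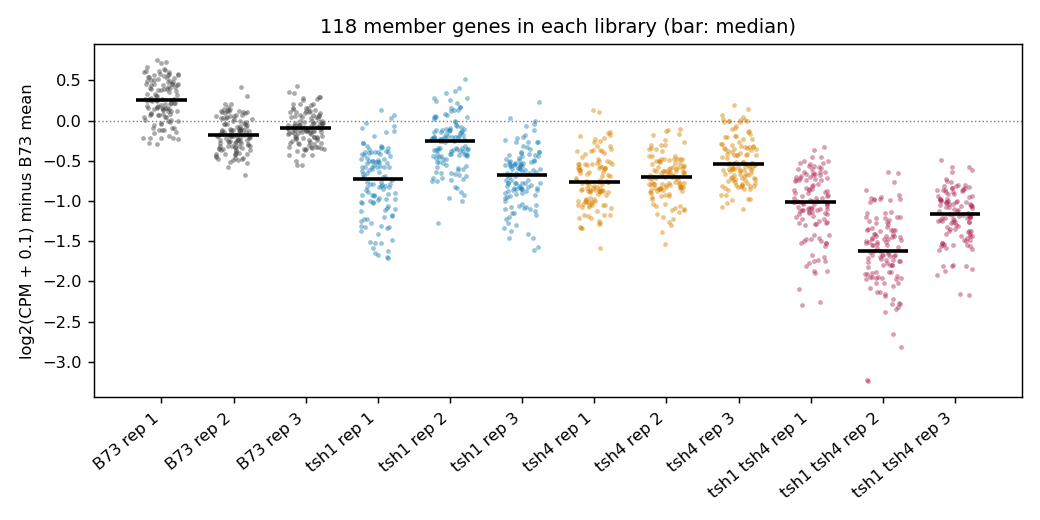
Difference of each of the 118 genes from its B73 mean, on the log2(CPM + 0.1) scale (vertical axis), in each of the 12 libraries (horizontal axis). Points are genes and bars are medians, which run from 0.25 in B73 replicate 1 to -1.62 in *tsh1 tsh4* replicate 2, with *tsh1* replicate 2 at -0.25.

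When the selection was repeated without B73 replicate 1, 82 genes met it, of which 58 were among the 118. Without *tsh1 tsh4* replicate 2 it took 90 genes, 78 of them among the 118, and without both libraries 76 genes, 45 of them among the 118. Leaving out each of the 12 libraries in turn gave 82 to 176 genes, and 21 of the 118 (17.8%) were found in all 12 of these selections. Among these 21 were *te1*, *D8*, *zmm31*, *lls1*, GRMZM2G322950 and GRMZM2G055999, all described further on. Of these named genes, only *zmm31* was not among the 45 found without both libraries. With the 118 genes held fixed, the median difference without both libraries was -0.46 for *tsh1*, -0.52 for *tsh4* and -0.97 for the double mutant. Of the 118 genes, 116 remained below B73 in all 3 mutants. Only 51 still lay at or below -1 in *tsh1 tsh4* and at or below -0.25 in both single mutants, a count that leaves aside the lower limit for the single mutants.

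**Figure D2:**
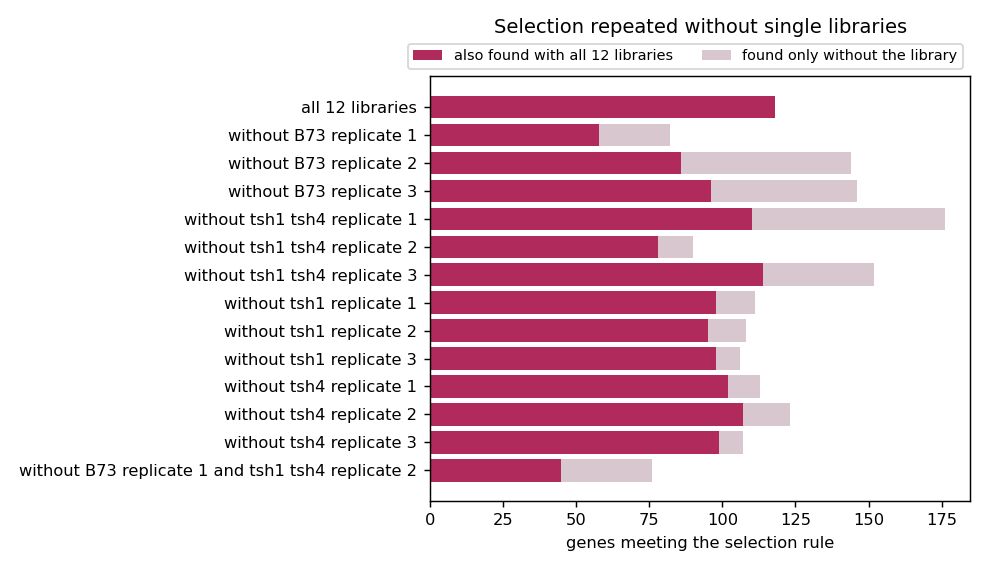
Number of genes meeting the selection rule (horizontal axis) with all 12 libraries and with named libraries left out. The dark part of each bar counts genes also among the 118 and the light part genes found only in that selection; the shortest dark part, 45 genes, is without B73 replicate 1 and *tsh1 tsh4* replicate 2.

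The 118 genes spanned a wide range of levels. In B73, 60 genes averaged under 10 CPM, 44 averaged 10 to 100 CPM and 14 averaged 100 CPM or more, with a median of 9.23 CPM and a range of 1.38 to 554 CPM. Every value rested on at least 16 reads. The median gene kept 67.0% of its B73 level when *tsh1* was mutant, 62.1% when *tsh4* was and 42.4% when both were. On the log2 scale the medians were -0.59 (range -0.997 to -0.254), -0.67 (-0.997 to -0.267) and -1.23 (-2.30 to -1.001) in the same order, against 0.00, -0.01 and -0.01 over all 20168 genes. The change was larger in *tsh4* than in *tsh1* for 81 genes and larger in *tsh1* for 37. The mirror rule, small rises in both single mutants with a rise of at least 1 in *tsh1 tsh4*, found 45 genes.

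At the limit of -1 in *tsh1 tsh4*, the genes just inside were GRMZM2G413006 at -1.001 and GRMZM2G033489 at -1.01. Just outside were GRMZM2G111955 at -0.996 and GRMZM2G178839 at -0.99. GRMZM2G111955 averaged 13.7 CPM in B73 and 6.82 CPM in *tsh1 tsh4*, so the group has no natural edge there. Of the 477 lowered genes, 222 had a difference of -1 or less in *tsh4* and 99 in *tsh1*, while 115 had a *tsh1* difference above -0.25 and 47 a *tsh4* difference above -0.25.

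For the median gene the *tsh1 tsh4* change was close to the sum of the single changes. The summed single differences had a median of -1.25 (log2). The departure, which is the *tsh1 tsh4* difference minus that sum, had a median of -0.05, with its middle 50% of genes between -0.30 and 0.17 and a range of -0.90 to 0.74. It was below 0 for 65 genes and above 0 for 53, within 0.25 of 0 for 58 genes and within 0.5 for 101. Over all genes the median departure was -0.01, and 51.3% of genes were below 0. The selection itself limits the departure, because a gene with 2 small falls and a *tsh1 tsh4* difference above -1 was not taken. The sign of the median was not stable: it was 0.19 without *tsh1 tsh4* replicate 2, with 40 genes below 0, and 0.12 without *tsh1* replicate 2, with 43 genes below 0. Another set, with *tsh1* itself in it, held the 54 genes that were lower by at least 1 in all 3 mutants. Its median summed difference was -3.46, its median *tsh1 tsh4* difference -2.50 and its median departure 0.96. The rule of that set also fixes part of these values, so the 2 medians are not a comparison of gene behaviour.

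**Figure D3:**
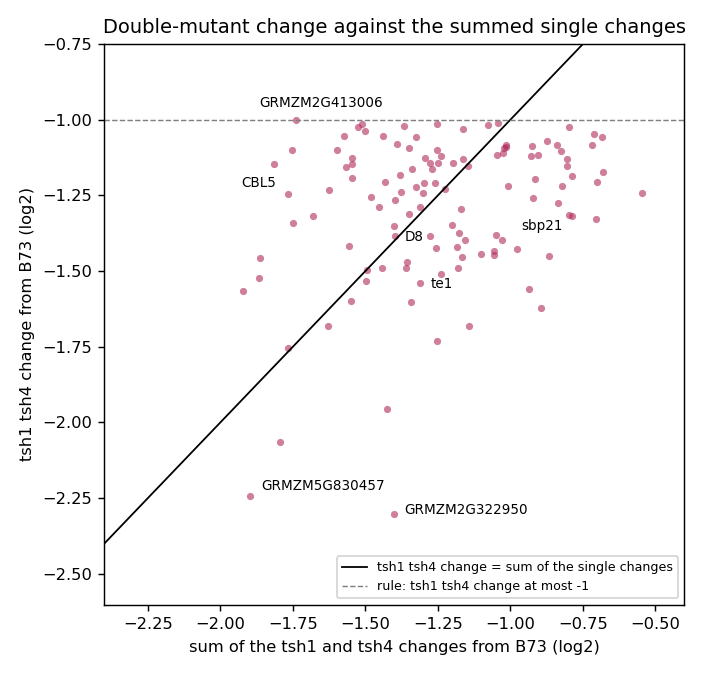
Change in *tsh1 tsh4* (vertical axis, log2) against the summed changes of both single mutants (horizontal axis, log2) for the 118 genes, all relative to the same B73 libraries. The solid line marks equality and the dashed line the limit of -1; GRMZM2G322950 lies furthest below the line (departure -0.90) and GRMZM2G413006 furthest above it (0.74).

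In limma, fitted on all 12 libraries with Benjamini-Hochberg adjustment over all 20168 genes, no departure passed an adjusted p of 0.05 among the 118 genes (lowest adjusted p = 0.62), and 2 had an unadjusted p under 0.05, against 5.32% of all genes. Over all genes 58 departures passed, or 0.288%. edgeR and DESeq2 on the reads recovered from the CPM values also called 0 of the 118. A departure that misses this threshold does not show that the changes were additive. At an adjusted p of at most 0.05 and a log2 fold change of at most -1, limma called 105 of the 118 genes lower in *tsh1 tsh4* than in B73, a comparison in which 3.15% of all genes were called. The count was 58 without B73 replicate 1, 65 without *tsh1 tsh4* replicate 2 and 36 without both. In the single mutants 4 genes passed an adjusted p of 0.05 as lower in *tsh1* (0.883% of all genes) and 21 in *tsh4* (2.31%), and 82 of the 105 called in *tsh1 tsh4* passed in neither. Against the single mutants, 26 genes passed as lower in the double mutant than in *tsh1* (1.89% of all genes) and 4 as lower than in *tsh4* (0.382%). Without B73 replicate 1, or without B73 replicate 3, 0 genes passed in *tsh1*, and leaving out any 1 B73 or *tsh4* library left 5 to 10 passing in *tsh4*. Nothing was read from these counts, since the same contrasts chose the genes.

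The groups of libraries separated unevenly. All *tsh4* libraries lay below all B73 libraries for 80 of 118 genes (11.9% of all genes did so), and all *tsh1* libraries for 51 (7.42%), or 96 when *tsh1* replicate 2 was left out, and both held for 43 (3.65%). The *tsh1 tsh4* libraries lay below all 6 single-mutant libraries for 34 genes (1.56%), or 62 without *tsh1 tsh4* replicate 1. In 15 genes the 3 levels did not overlap at all, with both single mutants below B73 and *tsh1 tsh4* below both (0.337% of all genes). These 15 included *te1*, *D8*, *zmm31* and GRMZM2G126646.

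Genes with a known role are taken first. Their roles come from their names, and of the 118 genes 93 matched RefSeq genes (assembly Zm-B73-REFERENCE-NAM-5.0) and 31 were named there. *te1*, *mwp1*, *zmm31*, *dlf1*, *ZmRR7*, *ACS6*, *lls1*, the remorin gene, *TRAF18* and *IBP1* were singled out after their values were seen, because they carry a name.

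The leaf genes *te1* and *mwp1* were both in the group. *terminal ear1* (*te1*, GRMZM2G085113) encodes a MEI2-like RNA-binding protein that restricts leaf initiation at the shoot apex. Its level was 162, 133 and 181 CPM in B73, 110, 121 and 109 CPM for *tsh1*, 86.5, 76.9 and 103 CPM for *tsh4* and 46.9, 55.8 and 60.3 CPM in the double mutant. Each mutant lay wholly below B73, *tsh4* lay wholly below *tsh1*, and *tsh1 tsh4* lay below both. The log2 fold changes were -0.48 ± 0.17 (SE) for *tsh1*, -0.84 ± 0.17 for *tsh4* and -1.54 ± 0.17 for the double mutant, with limma adjusted p of 0.27, 0.0062 and 1.3e-05. In *tsh1 tsh4* it kept 34.3% of the B73 level, where the product of the single fractions is 39.9%. *milkweed pod1* (*mwp1*, GRMZM2G082264) encodes a KANADI transcription factor of abaxial leaf identity. It was at 88.7, 105 and 120 CPM in B73, 93.9, 75.1 and 74.8 CPM for *tsh1*, 56.9, 35.9 and 69.8 CPM for *tsh4* and 24.4, 41.1 and 52.7 CPM in the double mutant. Here *tsh1* overlapped with B73, *tsh4* lay below both, and *tsh1 tsh4* overlapped with *tsh4*. The fold changes were -0.36 ± 0.26, -0.99 ± 0.26 and -1.47 ± 0.26 (log2, SE), so that *tsh4* was just inside the limit of -1. The gene no longer met the rule without B73 replicate 1.

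*dwarf8* (*D8*, GRMZM2G144744) encodes a DELLA protein, a repressor of growth that gibberellin removes. Its level was 564, 516 and 458 CPM in B73, 289, 333 and 333 CPM for *tsh1*, 281, 317 and 336 CPM for *tsh4* and 215, 162 and 228 CPM in the double mutant. The single mutants covered almost the same range, well under B73, and *tsh1 tsh4* lay wholly below them. The fold changes were -0.68, -0.72 and -1.35 (log2, SE 0.17 each), with limma adjusted p of 0.067, 0.021 and 6.3e-05. The level left in *tsh1 tsh4* was 39.4% of B73, and the product of the single fractions was 37.8%. Of the other 3 gibberellin dwarf genes matched by name, *dwarf3*, a cytochrome P450 of gibberellin synthesis, was called lower in *tsh1 tsh4* with a log2 fold change of -1.63. Its single-mutant changes of -1.18 and -1.17 were past the limit, with limma adjusted p of 0.28 and 0.15. Its level, 1.60 CPM in B73 and 0.45 CPM in *tsh1 tsh4*, also fell short of the 1 CPM average. *Dwarf1*, at -1.09, and the second DELLA gene *d9*, at -0.86, were not called (limma adjusted p = 0.062 for both).

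**Figure D4:**
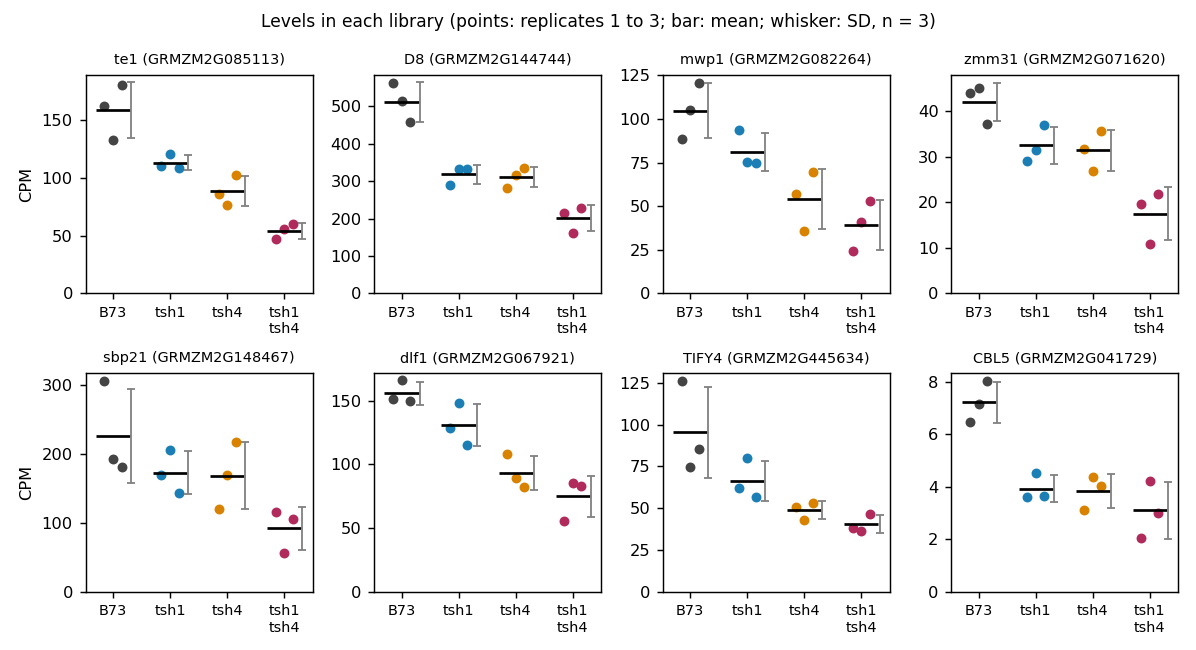
CPM in each library (vertical axes, from 0) for 8 named genes in B73, *tsh1*, *tsh4* and *tsh1 tsh4*; points are replicates 1 to 3 from left to right, bars are means and whiskers are SD (n = 3). *te1* and *D8* step down without overlap between B73, the single mutants and *tsh1 tsh4*, whereas *sbp21* overlaps between B73 and both single mutants and *CBL5* overlaps between all 3 mutants.

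Of the other transcription factor families drawn up, the MADS-box and SBP-box families had 1 gene each in the group and the bZIP family 2. *zmm31* (GRMZM2G071620) belongs to the MADS-box family, which includes many regulators of floral organ identity. It was at 43.8, 44.96 and 37.1 CPM in B73, 29.1, 31.3 and 36.8 CPM for *tsh1*, 31.6, 26.8 and 35.7 CPM for *tsh4* and 19.7, 10.9 and 21.8 CPM in the double mutant. The highest *tsh1* library lay just under the lowest B73 library, and *tsh1 tsh4* was clear of all others. Its changes were -0.37, -0.42 and -1.32 (log2, SE 0.22), and 41.7% of the B73 level was left where the product of the single fractions is 57.7%. Among the other 20 MADS-box genes matched by symbol 2 were called in *tsh1 tsh4*, both lower: *m26* at -1.39 and *Silky1* at -1.61, both also lower by more than 1 in *tsh4*. The *m26* change in *tsh1* was -1.61. *Silky1* was near the floor, at a mean of 0.42 CPM in B73 and 0.065 CPM in *tsh1 tsh4*.

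*sbp21* (GRMZM2G148467) belongs to the SBP-box family, as *tsh4* does. It was at 305, 192 and 180 CPM in B73, 169, 205 and 143 CPM for *tsh1*, 119, 169 and 216 CPM for *tsh4* and 115, 56.4 and 105 CPM in the double mutant. Both single mutants overlapped with B73, B73 replicate 1 stood far above its group, and only *tsh1 tsh4* was clear of the other genotypes. It no longer met the rule without B73 replicate 1 or without *tsh1 tsh4* replicate 2. Its changes were -0.36, -0.42 and -1.32 (log2, SE 0.28). In the order of the genes matched to RefSeq it is next to another of the 118 genes, GRMZM2G148475. That gene fell to 37.4% of its B73 level in *tsh1 tsh4* (8.97 ± 1.46 against 3.36 ± 0.926 CPM, SD, n = 3). The reads of neighbouring genes may not be fully separate, so the pair counts as uncertain evidence of 2 genes. GRMZM2G034668 and GRMZM2G122937 were the only other adjacent pair in this order. Genes without a match could not be placed, and some may lie between these pairs. Of the 200 matched genes nearest *tsh4*, 100 on either side, 3 were among the 118 genes. Over all 14381 matched genes, 93 were. A part of the *tsh4* region in these falls was not tested. Of the 19 other SBP-box genes, *sbp2* and *tsh4* itself were called lower in *tsh1 tsh4*. Called higher were *tga1*, *sbp29* and *sbp3* (GRMZM2G101499), at 2.14, 1.52 and 1.28 (log2). Another gene named *sbp3*, GRMZM2G106798, was more abundant in B73 (43.0 against 2.53 CPM) and was not called, at 0.0014 (log2).

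Both bZIP genes of the group differed in which single mutant was lower. *delayed flowering1* (*dlf1*, GRMZM2G067921), which encodes a bZIP protein that promotes the floral transition in maize, was at 152, 166 and 150 CPM in B73, 128, 148 and 115 CPM for *tsh1*, 108, 89.2 and 82.0 CPM for *tsh4* and 55.9, 85.5 and 83.0 CPM in the double mutant. All 3 *tsh1* libraries lay only slightly under B73, and *tsh1 tsh4* overlapped with *tsh4*. The changes were -0.26, -0.75 and -1.08 (log2, SE 0.18). *bZIP9* (GRMZM2G092137), at a mean of 2.08 CPM in B73, changed by -0.84, -0.34 and -1.49 in the same order (log2, SE 0.32), with *tsh4* replicate 1 inside the B73 range. Of the 24 other bZIP genes, 2 were called in *tsh1 tsh4*, both higher, *bZIP84* and *bZIP17*.

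Hormone and signaling genes followed. *TIFY4* (GRMZM2G445634) belongs to the TIFY family, which includes the JAZ repressors of jasmonate response. It was at 126, 74.6 and 85.2 CPM in B73, 62.2, 79.9 and 57.0 CPM for *tsh1*, 50.5, 43.1 and 53.0 CPM for *tsh4* and 38.3, 36.3 and 46.8 CPM in the double mutant. B73 replicate 1 was again the highest, *tsh1* replicate 2 overlapped with B73, and *tsh1 tsh4* overlapped with *tsh4*. The changes were -0.50, -0.93 and -1.21 (log2, SE 0.20), and *TIFY4* too dropped from the group without B73 replicate 1. Of the 13 other TIFY genes *TIFY15* was called lower and *TIFY1* higher in *tsh1 tsh4*. *ZmRR7* (GRMZM2G096171), a response regulator of the type induced by cytokinin, was at 7.28, 4.299 and 3.87 CPM in B73, 2.69, 2.98 and 1.84 CPM for *tsh1*, 2.87, 3.45 and 3.67 CPM for *tsh4* and 3.81, 1.25 and 1.95 CPM in the double mutant. Its mean in *tsh1 tsh4* was the lowest, but *tsh1 tsh4* replicate 1 lay above all single-mutant libraries. The changes were -0.98, -0.56 and -1.19 (log2, SE 0.34), and the gene no longer met the rule without B73 replicate 1 or without *tsh1 tsh4* replicate 2. Among the 8 other response regulators *RR6*, one of the genes left out of the group, was the 1 gene called, at -1.41.

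*ACS6* (GRMZM2G054361), an ACC synthase of ethylene synthesis, was low throughout, at 2.08, 1.46 and 1.85 CPM in B73, 0.919, 1.60 and 0.716 CPM for *tsh1*, 1.58, 1.07 and 1.13 CPM for *tsh4* and 0.414, 0.695 and 1.16 CPM in the double mutant. The single mutants overlapped with B73 and with *tsh1 tsh4*. Its changes were -0.74, -0.48 and -1.23 (log2, SE 0.34). The limma adjusted p in *tsh1 tsh4* was 0.034. With a replicate block it was 0.066 in limma (adjusted), and the call was lost. The ACC oxidase gene *ACO20*, which acts at the next step, had changes of -1.17 in *tsh1* (limma adjusted p = 0.058), 3.02 in *tsh4* and 3.06 in *tsh1 tsh4* (log2). *CBL5* (GRMZM2G041729), a calcineurin B-like calcium sensor, was at 6.48, 7.15 and 8.05 CPM in B73, 3.61, 4.54 and 3.64 CPM for *tsh1*, 3.12, 4.37 and 4.04 CPM for *tsh4* and 2.07, 4.22 and 3.02 CPM in the double mutant. All 3 mutants lay clear of B73 and overlapped with one another. The changes were -0.86, -0.90 and -1.25 (log2, SE 0.24), a departure of 0.52. It was the 1 gene of the 10 CBL and CIPK genes that limma called in *tsh1 tsh4*.

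The other named genes were *lls1*, a remorin gene, *TRAF18* and *IBP1*. *lls1* (GRMZM2G339563), a pheophorbide a oxygenase of chlorophyll breakdown, was at 4.85, 4.83 and 4.11 CPM in B73, 1.90, 3.54 and 3.92 CPM for *tsh1*, 2.24, 2.78 and 2.58 CPM for *tsh4* and 2.06, 2.29 and 2.12 CPM in the double mutant. Every mutant library was below B73, and the *tsh1 tsh4* replicates were close together. The remorin gene GRMZM2G004511 changed by -0.28, -0.78 and -1.45 (log2, SE 0.30), with *tsh1* replicate 2 at 10.3 CPM inside the B73 range of 6.80 to 12.8 CPM. *TRAF18* (GRMZM2G060723) and *IBP1* (GRMZM2G063151), an initiator-binding protein gene, were among the 13 genes that limma did not call in *tsh1 tsh4* (adjusted p = 0.093 and 0.062). The *tsh1* change of *TRAF18* was -0.31 with all libraries and 0.07 without *tsh1* replicate 1. In each of these genes B73 replicate 1 was the highest B73 library. The remorin gene, *TRAF18* and *IBP1* no longer met the rule without B73 replicate 1, and *TRAF18* also not without *tsh1 tsh4* replicate 2.

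The 8 genes with the highest B73 levels were *D8*, *sbp21* and 6 others. GRMZM2G089619 was at 652, 559 and 450 CPM in B73, 321, 433 and 299 CPM for *tsh1*, 386, 313 and 311 CPM for *tsh4* and 371, 197 and 269 CPM in the double mutant. All mutants lay below B73 and overlapped with one another, and the *tsh1 tsh4* change of -1.02 was near the limit. GRMZM2G126646 was the tightest of the 8, at 183, 226 and 198 CPM in B73, 166, 169 and 154 CPM for *tsh1*, 141, 131 and 138 CPM for *tsh4* and 70.2, 67.8 and 83.8 CPM in the double mutant. Its 4 genotypes formed 4 separate ranges, with changes of -0.31, -0.56 and -1.45 (log2, SE 0.15) and a departure of -0.58. With the replicate block GRMZM2G055999 also passed in *tsh4* (limma adjusted p = 0.032, and 0.054 without the block). For GRMZM2G055999, *prp2* (GRMZM2G102356), GRMZM2G067053 and GRMZM2G126239 the *tsh1 tsh4* changes were -1.14, -1.08, -1.09 and -1.06. GRMZM2G089619, *prp2* and GRMZM2G126239 no longer met the rule without B73 replicate 1 or without *tsh1 tsh4* replicate 2. GRMZM2G067053 no longer met it without *tsh1 tsh4* replicate 2.

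The largest falls in *tsh1 tsh4* belonged to genes of modest level without a role in the annotation used. GRMZM2G322950 was at 6.04, 3.28 and 4.196 CPM in B73, 1.67, 3.70 and 3.06 CPM for *tsh1*, 2.17, 2.78 and 3.01 CPM for *tsh4* and 0.815, 0.537 and 1.17 CPM in the double mutant. *tsh1* overlapped with B73, *tsh4* lay just under it, and the *tsh1 tsh4* libraries were clear of all others. The level left was 18.7% of B73, where the product of the single fractions is 36.7%. GRMZM5G830457 was at 36.8, 24.4 and 33.2 CPM in B73, 9.69, 26.6 and 17.6 CPM for *tsh1*, 13.4, 16.1 and 17.2 CPM for *tsh4* and 9.68, 3.24 and 8.59 CPM in the double mutant. The *tsh1* replicates spread widely, from the edge of the *tsh1 tsh4* range up into the B73 range. Its change in *tsh1 tsh4* was -2.24 ± 0.37 (log2, SE). The next 6, GRMZM2G178775, GRMZM2G429807, GRMZM2G079949, GRMZM5G834952, GRMZM2G374475 and GRMZM2G322844, changed by -2.06 to -1.68. For each of these 6 except GRMZM2G322844, *tsh1 tsh4* replicate 2 was the lowest of the 12 libraries. GRMZM2G429807, GRMZM5G834952 and GRMZM2G374475 no longer met the rule without B73 replicate 1.

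At the ends of the range of departures stood genes of low level. After GRMZM2G322950, the most negative were GRMZM2G373435 at -0.73 and GRMZM2G047759 at -0.70. GRMZM2G047759 was at 6.95, 7.22 and 8.15 CPM in B73, 4.93, 7.85 and 6.18 CPM for *tsh1*, 4.33, 6.83 and 7.44 CPM for *tsh4* and 4.59, 2.35 and 2.69 CPM in the double mutant. Both single mutants overlapped with B73, and *tsh1 tsh4* replicate 1 overlapped with *tsh4*. The most positive were GRMZM2G413006 at 0.74, GRMZM2G121573 at 0.67 and GRMZM2G142390 at 0.65. With the replicate block GRMZM2G142390 passed in *tsh4* (limma adjusted p = 0.043, and 0.094 without it). GRMZM2G413006 was at 6.11, 4.78 and 6.04 CPM in B73, 3.26, 3.38 and 2.603 CPM for *tsh1*, 2.74, 3.70 and 2.62 CPM for *tsh4* and 3.67, 2.12 and 2.67 CPM in the double mutant. The 3 mutants covered one range, about as low in each single mutant as in *tsh1 tsh4*.

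The spread between replicates was wider for these genes than for genes in general. The median SD of log2(CPM + 0.1) was 0.31 for B73, 0.36 for *tsh1*, 0.25 for *tsh4* and 0.45 for the double mutant, against 0.21, 0.27, 0.18 and 0.27 over all genes at 1 CPM or more. The part of this spread in the selection was not tested beyond the selections that left a library out.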

How the data were processed

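The data were RNA-seq of 12 libraries, 3 per genotype. Per the study's methods, reads were trimmed with Trimmomatic 0.36, mapped to B73 RefGen version 3 with STAR 2.6.0a and counted per gene with featureCounts, and the authors normalized them with edgeR 3.22.5 after a filter on low CPM. The deposited table holds signal values, which are CPM, read counts scaled to effective library sizes in edgeR. Whole reads were recovered for 100% of the values, since each value is a multiple of the value of 1 read (0.00883 to 0.0217 CPM).

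Differences were computed on log2(CPM + 0.1) and tested with limma 3.58.1 (R 4.3.3; lmFit and trended eBayes on all genes and libraries, Benjamini-Hochberg adjustment). The calls needed an adjusted p of at most 0.05 and, for the double mutant, also a 1-unit log2 fold change. Alternatives were the quasi-likelihood test of edgeR 4.0.16, DESeq2 1.42.0 (each run on the recovered reads), other pseudocounts, filters and scalings, a replicate block and libraries left out. Only the limma comparison of *tsh1 tsh4* with B73 was checked on simulated data. The other contrasts, edgeR and DESeq2 were not. Replicates correlated at r = 0.970 to 0.991 and no 2 libraries were identical. Replicate numbers come from the labels, which do not say what they share. Deviations from the genotype means correlated over 0.1 for all 3 same-numbered pairs of B73 and *tsh1 tsh4* (r = 0.30 to 0.73), and for no other pair of genotypes did all 3 do so. Some libraries with different numbers correlated as strongly. For *tsh1* replicate 2, r was 0.58 with B73 replicate 1 and 0.61 with *tsh1 tsh4* replicate 1.

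The members and the gene lists were chosen with earlier results of these data known. Named genes were the 8 highest in B73, the 8 with the largest fall in *tsh1 tsh4*, up to 3 per list, the 3 largest departures each way and the nearest 2 on each side of the limit, with the exceptions stated. Of 22 lists, 12 matched any symbol and 3 matched a member (*TIFY4*, *bZIP9* and *CBL5*), because the annotation used gives symbols without descriptions. Of the 205 genes these lists matched, 30 were called in *tsh1 tsh4* in either direction (over all genes, 3.15% were called lower and 2.69% higher). Called lower and higher were 2 and 1 of 14 jasmonate genes, 12 and 10 of 144 transcription factors, while 1 of 13 calcium signaling genes and 2 of 8 abscisic acid genes were called lower and 2 of 3 auxin genes higher. The remaining 7 lists, of 1 to 9 genes, added no call. The 9 gene families in the text were drawn up after the members were seen. Promoter sequence was not analysed here. One further marker gene is not reported here.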

Additional observations from a re-analysis of the deposited data

How the results depend on the processing

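The number of genes meeting the rule was 66 at a mean of 5 CPM or more, 66 with a limit of -1.2 in *tsh1 tsh4*, 72 with single-mutant changes above -0.8, 53 with single-mutant changes at or below -0.5, and 82 to 176 when 1 library was left out. Leaving out 1 library moved the median difference of the 118 genes between -0.73 and -0.46 for *tsh1*, -0.72 and -0.52 for *tsh4*, and -1.36 and -1.10 for the double mutant. It moved the median departure between -0.19 and 0.19 and the number of genes below the sum between 40 and 80. The median departure changed sign to 0.0078 with a pseudocount of 1 and to 0.015 with equal library totals. With a pseudocount of 1, 69 genes were called in *tsh1 tsh4*. DESeq2 called 13 genes in *tsh1* and 37 in *tsh4*, and fits of only the genotypes compared called 1 and 52. Without 1 library the calls ran from 58 to 113 in *tsh1 tsh4*, 0 to 7 in *tsh1*, 5 to 30 in *tsh4* and 0 in the departure. Genes with all *tsh1* libraries below B73 ran from 51 to 96, with all *tsh4* libraries below B73 from 80 to 97, and with *tsh1 tsh4* below all single-mutant libraries from 34 to 62. Without B73 replicate 1 and *tsh1 tsh4* replicate 2, a setting chosen after seeing the data, 76 genes met the rule, the median *tsh4* difference was -0.52, the median departure was 0.021, 36 genes were called in *tsh1 tsh4* and 0 in *tsh1*. The causes of these shifts were not tested. The *tsh1* change of *TRAF18* (GRMZM2G060723) ran from -0.67 to 0.066 when 1 library was left out (0.066 without *tsh1* replicate 1), the 1 change of sign among the named genes.

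Same-numbered libraries of B73 and *tsh1 tsh4* deviated together, as given with the methods. Over all genotypes the median r was 0.14 for libraries with the same number (-0.41 to 0.73) and 0.0096 for those with different numbers (-0.59 to 0.61). Of the 12 libraries, 7 correlated best with their own number. With the replicate block 99 genes were called in *tsh1 tsh4*, 4 in *tsh1*, 23 in *tsh4*, 0 in the departure and 29 in the gene lists, and among the named genes it changed the calls of *ACS6*, GRMZM2G055999 and GRMZM2G142390 and no other. Promoter motif shares were planned and not run. Values of the 118 genes rested on 16 reads or more, and with 3 libraries per genotype an exact permutation test of 1 gene cannot go below p = 0.10.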
